A study of Homo sapiens with 4 samples.

Results

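The zinc finger gene cluster at 19q13.12 was examined across 4 RNA sequencing libraries of NUGC3, a human gastric cancer cell line. Its members were the rows with an Ensembl identifier whose symbol was that of a zinc finger gene of this stretch of chromosome 19, from ZNF565 and ZNF146 to ZNF573. All 30 members had a row, out of 53777 gene rows in the table, and all 30 lay on chromosome 19 in GENCODE 29. The genes were named by place and type, but the cluster was chosen by its FPKM difference between NIPBL knockdown and scramble libraries. The members' changes in that comparison are therefore given as a description. Members called by the fit over all genes are counted, with no p-value given for any of them and nothing read from the count.

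In 2 of the libraries the cells had been transfected with a short hairpin against NIPBL, and in the other two with a scramble control, all in the same line. NIPBL knockdown 1 held hairpin 1 and NIPBL knockdown 2 held hairpin 7, so each hairpin is a single library. All 4 labels also hold the letters DOX, which they do not explain, and scramble 2 repeats the label of scramble 1 plus a suffix. Separate cultures are not stated for either group, so a p-value here sets a difference against a spread that may be technical.

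Most genes of this cluster encode KRAB zinc finger proteins, a large family of vertebrate repressors that arose by repeated local duplication. An array of zinc fingers reads the DNA sequence, in many cases that of a transposable element. The KRAB domain recruits the corepressor TRIM28, which brings the histone methyltransferase SETDB1 and heterochromatin proteins. ZNF146 and ZNF260 are known as members of the cluster whose proteins consist of zinc fingers without a KRAB domain. NIPBL, the gene that was knocked down, encodes the factor that loads the cohesin ring onto chromosomes, where cohesin extrudes loops of chromatin.

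Every member had a lower mean in the NIPBL knockdown libraries than in the scramble libraries, and the size of the difference varied widely among neighbours. The summed level of the 30 genes was 209.4 FPKM with hairpin 1 and 209.6 FPKM with hairpin 7, against 448.9 and 464.0 FPKM in the scramble libraries. FPKM divides a gene's reads by transcript length and by the reads of the library, so levels of different genes can be set side by side. The sum in the knockdown libraries, 209 ± 0.148 FPKM, was 45.9% of the 456 ± 10.7 FPKM in the scramble libraries (SD, n = 2 each). In a bulk sample, fewer cells that express a gene and less RNA per cell cannot be told apart.

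NIPBL itself checks the labels. It was at 7.27 FPKM with hairpin 1 and 9.17 FPKM with hairpin 7, against 23.92 and 23.11 FPKM in the scramble libraries. On the log2(FPKM + 1) scale it fell by 1.42 ± 0.14 (SE, limma, adjusted p = 0.0217), a call that was lost when scramble 1 or scramble 2 was left out (0.2573 and 0.2615). It was also lost with no filter on low values (0.1182) and with the scramble libraries averaged (0.2808), while the fall stayed between 1.39 and 1.44 in these 4 fits. The libraries were epithelial by their markers, with KRT18 between 1368.29 and 2131.15 FPKM and EPCAM between 166.28 and 209.83 FPKM. Leukocyte markers reached at most 0.9 FPKM and endothelial ones at most 0.95 FPKM, while COL1A2 and COL3A1 were listed at 0 in every library and COL1A1 was between 5.75 and 9.39 FPKM. The table's values summed to between 682076 and 749446 FPKM in each library. Read depth is unknown.

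The upstream sequences of members at both ends of the range of change are shown here, so that the results below can be read beside the DNA. They are the 250 bases before the first start that RefSeq lists (GRCh38.p14), for the 3 members with the largest and the 3 with the smallest log2 change among the 27 members with an entry. Each runs 5′ to 3′ toward the gene, and capitals mark matches to the motifs listed after the sequences.
ZNF607 (chr19:37719189-37719438, minus strand): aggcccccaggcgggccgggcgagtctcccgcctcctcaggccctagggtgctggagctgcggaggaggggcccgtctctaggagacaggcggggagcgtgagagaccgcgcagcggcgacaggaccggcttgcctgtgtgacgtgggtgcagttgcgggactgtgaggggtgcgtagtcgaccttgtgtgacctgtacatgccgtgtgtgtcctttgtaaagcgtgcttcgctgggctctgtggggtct
ZNF345 (chr19:36850626-36850875, plus strand): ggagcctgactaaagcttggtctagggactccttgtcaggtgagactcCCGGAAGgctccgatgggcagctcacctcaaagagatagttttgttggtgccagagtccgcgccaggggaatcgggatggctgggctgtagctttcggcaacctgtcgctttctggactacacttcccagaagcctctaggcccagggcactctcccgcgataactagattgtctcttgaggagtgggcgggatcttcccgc
ZFP30 (chr19:37656262-37656511, minus strand): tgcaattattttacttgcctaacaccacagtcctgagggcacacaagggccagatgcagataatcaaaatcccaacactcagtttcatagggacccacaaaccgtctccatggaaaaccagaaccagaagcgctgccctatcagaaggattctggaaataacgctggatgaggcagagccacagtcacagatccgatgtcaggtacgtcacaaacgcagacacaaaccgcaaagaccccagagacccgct
ZNF260 (chr19:36528272-36528521, minus strand): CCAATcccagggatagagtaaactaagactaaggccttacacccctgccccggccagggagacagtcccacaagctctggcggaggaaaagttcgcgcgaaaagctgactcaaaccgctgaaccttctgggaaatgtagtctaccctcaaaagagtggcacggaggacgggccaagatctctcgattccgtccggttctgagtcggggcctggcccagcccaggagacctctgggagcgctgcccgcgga
ZNF585A (chr19:37172696-37172945, minus strand): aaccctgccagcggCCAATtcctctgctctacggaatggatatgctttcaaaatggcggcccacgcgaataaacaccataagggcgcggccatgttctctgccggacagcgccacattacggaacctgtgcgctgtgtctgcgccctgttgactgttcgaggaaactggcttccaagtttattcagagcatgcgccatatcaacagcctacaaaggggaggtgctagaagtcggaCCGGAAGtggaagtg
ZNF527 (chr19:37370849-37371098, plus strand): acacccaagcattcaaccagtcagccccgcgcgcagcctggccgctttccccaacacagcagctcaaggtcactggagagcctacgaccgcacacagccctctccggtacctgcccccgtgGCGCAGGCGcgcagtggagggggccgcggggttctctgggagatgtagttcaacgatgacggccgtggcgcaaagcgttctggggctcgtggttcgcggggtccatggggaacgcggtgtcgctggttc

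In 27 windows of 250 bases before and 50 after the first listed start, the median GC content was 61% (range 51.7% to 73.3%), against 58.3% in 27305 windows of all genes listed. The members' windows held a median of 22 CpG dinucleotides, against 14 in all genes. In 157 windows of zinc finger genes elsewhere on chromosome 19 the medians were 59% GC and 19 CpG dinucleotides. Motifs were searched on both strands by the letters given, and 0 of 28 matches in members' windows overlapped a match of another motif. GCGCANGCG, the core of the NRF1 motif, was found in 9 of 27 windows (33.3%), in 7.64% of 157 windows of zinc finger genes elsewhere on chromosome 19, and in 8.05% of all windows. CCGGAAG, an ETS motif, was in 25.9% of members' windows and in 10.7% of all windows, while the other chromosome 19 zinc finger genes held it in 50.3%. The CCAAT box was in 22.2% of members' windows, in 63.7% of those other zinc finger genes and in 35.7% of all windows. GGGGCGGGG, a GC box, was in 0 of 27 members' windows, against 27.4% of the other chromosome 19 zinc finger genes and 16% of all windows. The E-box CACGTG, which MYC and other factors bind, was in 1 of 27 windows (3.7%), that of ZNF565. It was in 3.82% of the other chromosome 19 zinc finger genes and in 7.43% of all windows. TATAAA was in 0 of 27 windows, in 2.55% of those other zinc finger genes and in 12% of all. AAGATGGCG, the core of the YY1 motif, was in 2 of 27 windows, in 3.82% of those other genes and in 1.85% of all. TCTCGCGAG, from the ZBTB33 motif, was in 1 of 27, in 0% of those other genes and in 0.721% of all. Back-to-back genes share part of their windows, so these windows are not independent, and a match is not evidence of binding.

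**Figure D1:**
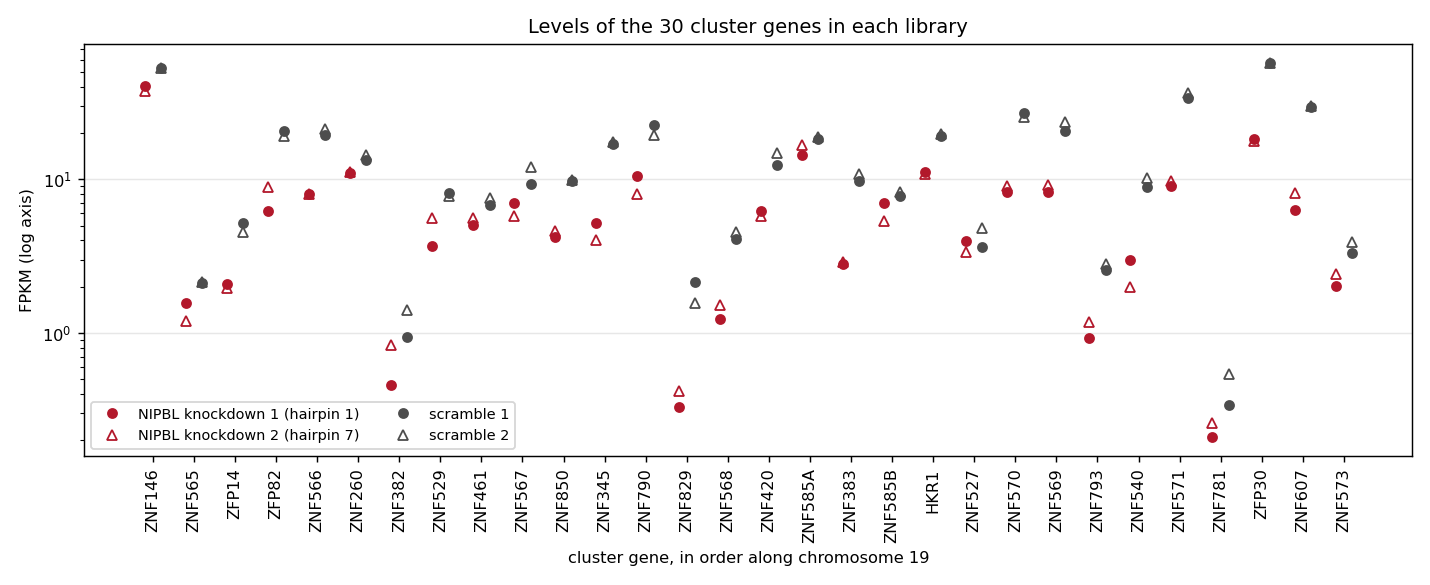
FPKM (log axis) of the 30 cluster genes in order along chromosome 19, with NIPBL knockdown libraries in red to the left and scramble libraries in grey to the right of each gene. In 29 of the 30 genes, against 30.8% of all genes tested, both knockdown points lie below both scramble points, with ZNF527 as the exception.

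Back-to-back genes come first, since 10 members form 5 pairs whose starts in GENCODE 29 lie at most 335 bases apart on opposite strands. ZNF571 was at 9.06 and 9.80 FPKM in the knockdown libraries, against 33.62 and 36.50 FPKM in the scramble libraries. Its partner ZNF540, which starts 40 bases away, was at 3.00 and 2.00 FPKM in the knockdown libraries and at 8.96 and 10.12 FPKM in the scramble libraries. Both genes of this pair were at close to the same share of scramble, 26.9% for ZNF571 and 26.2% for ZNF540, although ZNF571 was the more abundant in every library.

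ZNF569, whose protein has been reported to repress MAPK reporter genes, was at 8.26 and 9.18 FPKM in the knockdown libraries, against 20.71 and 23.54 FPKM in the scramble libraries. ZNF570, on the other side of the same start region, was at 8.22 and 9.01 FPKM in knockdown and 27.05 and 25.35 FPKM in scramble libraries. The partners thus stood near each other in every library, at 39.4% and 32.9% of scramble.

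ZNF790 was at 10.55 and 8.0 FPKM with the hairpins, against 22.55 and 19.55 FPKM in scramble libraries. ZNF345, starting 89 bases away, was at 5.22 and 4.0 FPKM with the hairpins and 17.09 and 17.48 FPKM in scramble libraries. Here the partners differed most, with log2 changes of -1.11 ± 0.16 for ZNF790 and -1.71 ± 0.15 for ZNF345 (SE). In both genes hairpin 7 gave the lower value.

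ZNF829 was at 0.33 and 0.42 FPKM in the knockdown libraries, against 2.15 and 1.57 FPKM in the scramble libraries. It had the lowest share of scramble of all 30 members, 20.2%, and it passed the filter on low values only through the scramble libraries. ZNF568, whose mouse counterpart silences a placental promoter of Igf2, was at 1.24 and 1.52 FPKM in knockdown and 4.07 and 4.51 FPKM in scramble libraries, 32.2% of scramble. On the log2(FPKM + 1) scale this pair differed little, at -1.05 and -1.15, because that scale understates the change of low genes.

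ZNF565 and ZNF146 form the pair at the edge of the cluster and had small differences. ZNF146, a protein of zinc fingers alone, was at 40.69 and 37.51 FPKM in the knockdown libraries, against 53.37 and 52.94 FPKM in the scramble libraries. ZNF565 was at 1.57 and 1.20 FPKM in the knockdown and 2.11 and 2.14 FPKM in the scramble libraries. Their levels lay more than an order of magnitude apart while their log2 changes were -0.43 and -0.39. With a pseudocount of 0.1 the changes were -0.4432 for ZNF146 and -0.5946 for ZNF565, and knockdown stood at 73.6% and 65.2% of scramble. Neither gene's groups overlapped, with knockdown below scramble as in 30.8% of genes tested.

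Across these 5 pairs the log2 changes of partners differed by a median of 0.19 (range 0.04 to 0.60). The scale understates the change of low genes such as ZNF565, ZNF829 and ZNF568, so these differences depend on the pseudocount. With a pseudocount of 0.1, ZNF829 was at -2.035 and ZNF568 at -1.573. Any 2 of the 30 members, 435 combinations, differed by a median of 0.56, and neighbours in order of their starts by a median of 0.41. Partners share a start region and in part overlap in sequence, so reads near their starts may not be separable without a strand setting, which the sources used here do not give.

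**Figure D2:**
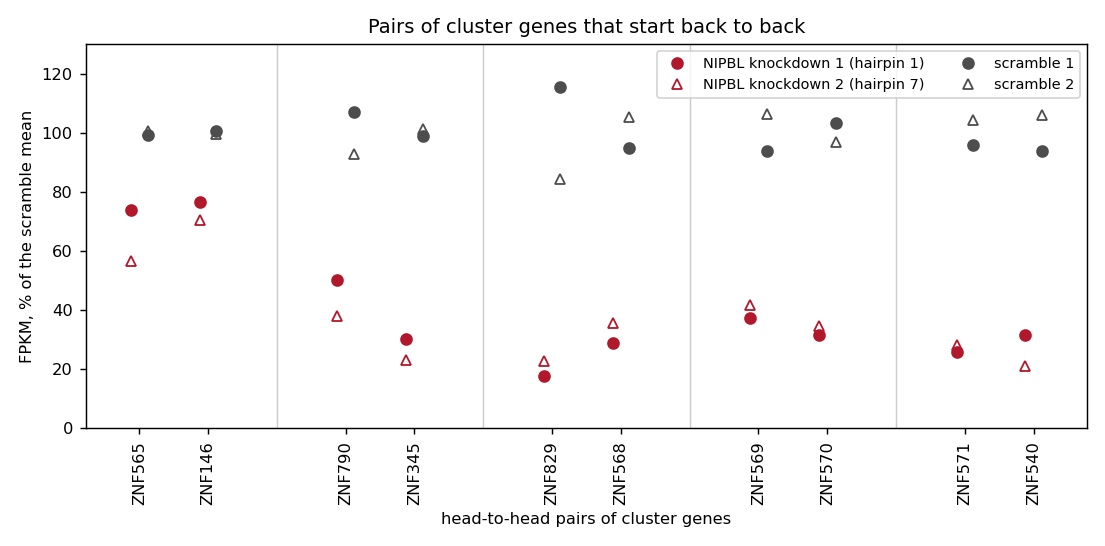
FPKM of the 10 genes in back-to-back pairs as a percentage of each gene's scramble mean, with NIPBL knockdown libraries in red to the left and scramble libraries in grey to the right. The knockdown points of ZNF571 and ZNF540 lie around 26.9% and 26.2%, those of ZNF565 and ZNF146 around 65.2% and 73.6%.

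Among members outside these pairs, ZFP30 and ZNF607 were the most abundant in scramble libraries and also among those with the largest differences. The next in level varied. ZNF566 and ZFP82, at 20.3 and 19.9 FPKM in scramble libraries, stood at 39.5% and 37.8% of scramble. HKR1 and ZNF585A, at 19.4 and 18.5 FPKM, stood at 56.8% and 84.1%. ZFP30, a KRAB zinc finger gene whose mouse counterpart has been linked to airway neutrophil recruitment, was at 18.28 and 17.76 FPKM in the knockdown libraries and 57.32 and 57.36 FPKM in the scramble libraries. The agreement within each group was close, and knockdown stood at 31.4% of scramble. ZNF607 was at 6.35 and 8.10 FPKM in knockdown and 29.49 and 30.20 FPKM in scramble libraries. Its log2 change of -1.92 ± 0.14 (SE) was the lowest of the cluster, 24.2% of scramble. ZNF383, whose protein has been reported to repress MAPK reporter genes, was at 2.80 and 2.90 FPKM in knockdown and 9.75 and 10.85 FPKM in scramble libraries, 27.7% of scramble. ZFP30 and ZNF607 are neighbours, whereas ZNF383 lies between ZNF585A and ZNF585B, whose differences were small.

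Of the members outside the pairs, 6 lay between 37.8% and 44.8% of scramble. ZFP82 was at 6.17 and 8.91 FPKM in knockdown and 20.64 and 19.25 FPKM in scramble libraries. ZNF566 was at 8.06 and 7.98 FPKM in knockdown and 19.31 and 21.33 FPKM in scramble libraries. In ZFP82 the hairpins stood apart, with the lower value under hairpin 1, while in ZNF566 they nearly coincided. ZFP14 was at 2.08 and 1.96 FPKM in knockdown and 5.16 and 4.57 FPKM in scramble libraries. ZNF850 was at 4.23 and 4.6 FPKM in knockdown and 9.75 and 9.96 FPKM in scramble libraries. ZNF420, whose protein Apak is known to restrain p53, was at 6.24 and 5.74 FPKM in knockdown and 12.43 and 14.81 FPKM in scramble libraries. ZNF793 belonged here by its share but was low, at 0.92 and 1.18 FPKM in knockdown and 2.55 and 2.79 FPKM in scramble libraries. None of these 6 genes overlapped between groups, where 30.8% of genes tested also had both knockdown libraries below both scramble libraries.

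HKR1, also named ZNF875, was at 11.16 and 10.82 FPKM in knockdown and 19.02 and 19.69 FPKM in scramble libraries, 56.8% of scramble. ZNF529 was at 3.68 and 5.56 FPKM in knockdown and 8.18 and 7.79 FPKM in scramble libraries. It had the widest gap between hairpins of any member, 0.49 on the log2 scale, with hairpin 7 nearer to scramble. ZNF567 was at 7.05 and 5.78 FPKM in knockdown and 9.27 and 12.10 FPKM in scramble libraries, and had the widest gap between scramble libraries, 0.35. ZNF573, the last member, was at 2.01 and 2.43 FPKM in knockdown and 3.32 and 3.91 FPKM in scramble libraries. ZNF461 was at 5.06 and 5.59 FPKM in knockdown and 6.80 and 7.60 FPKM in scramble libraries. These 5 genes lay between 56.8% and 74% of scramble. Their groups again did not overlap, with knockdown below scramble as in 30.8% of genes tested.

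The smallest differences were found in the 4 members at 77.4% or more of scramble. ZNF527 was at 3.98 and 3.35 FPKM in knockdown and 3.60 and 4.83 FPKM in scramble libraries, so its groups overlapped, and its log2 change of -0.15 ± 0.18 (SE) became 0.017 without scramble 2. ZNF260, zinc fingers without a KRAB domain, was at 10.99 and 11.13 FPKM in knockdown and 13.28 and 14.29 FPKM in scramble libraries. ZNF585A was at 14.48 and 16.66 FPKM in knockdown and 18.27 and 18.77 FPKM in scramble libraries. Its paralog ZNF585B was at 7.01 and 5.39 FPKM in knockdown and 7.76 and 8.26 FPKM in scramble libraries. The hairpins differed in opposite directions between the paralogs, hairpin 1 being the lower for ZNF585A and hairpin 7 for ZNF585B.

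Reads shared with similar genes bear on the paralogs above all. In GENCODE 29, 27.6% of the 50-base stretches in ZNF585B transcripts and 17.6% of those in ZNF585A transcripts also occur in another gene, mostly in each other and in the unnamed gene AC012309.1. ZNF607 shared 12.6%, nearly all with AC093227.2, and the other 27 members shared between 0.685% and 9.8%. The read length is not given in the sources used here, and the part of shared reads in the values of ZNF585A, ZNF585B and ZNF607 was not tested.

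ZNF382 and ZNF781 were below a mean of 1 FPKM over the 4 libraries and did not enter the fit. ZNF382, a repressor described as a tumour suppressor, was at 0.46 and 0.83 FPKM in knockdown and 0.94 and 1.40 FPKM in scramble libraries. ZNF781, which overlaps ZFP30 on the same strand, was at 0.21 and 0.26 FPKM in knockdown and 0.34 and 0.54 FPKM in scramble libraries. Neither gene's groups overlapped, with knockdown below scramble as in 30.8% of genes tested, but at such low levels small errors in FPKM weigh heavily.

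Counted over the cluster, both knockdown libraries lay below both scramble libraries in 29 of 30 members and above them in 0, where 30.8% of the 12834 genes tested lay below and 29.5% above. The mean was at least 2-fold lower in 17 members, against 2.6% of genes tested. The fit over all genes called 15 members lower at an adjusted p under 0.05 and 0 higher (limma), while 1.11% of genes tested were called lower. The 15 were ZFP82, ZNF566, ZNF850, ZNF790, ZNF345, ZNF568, ZNF420, ZNF383, HKR1, ZNF569, ZNF570, ZNF540, ZNF571, ZFP30 and ZNF607. They made up 10.6% of the 142 genes called lower in the whole table and 50% of the cluster. Since this comparison was known when the cluster was chosen, nothing is read from these counts. Without scramble 1 or without scramble 2 the fit called 0 genes in the whole table (1060 and 1052 at an unadjusted p under 0.05), and so 0 members. Fitting every gene above 0 in any library gave 1 call, of no member, and with the scramble libraries averaged 0 genes were called (975 at an unadjusted p under 0.05).

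The median log2 change of the 30 members was -0.98, with quartiles of -1.30 and -0.41, against a median of -0.01 over all genes tested. It was -0.94 with hairpin 1 and -0.97 with hairpin 7, each set against the mean of the same scramble libraries. With hairpin 1 the members ranged from -2.07 to -0.06 and with hairpin 7 from -1.87 to -0.14, so all 30 were below 0 with either hairpin. Hairpin 7 minus hairpin 1 ranged from -0.42 to 0.49 across members, lower in 13 and higher in 17, with an SD of 0.23. The corresponding difference between scramble libraries ranged from -0.29 to 0.35, with an SD of 0.15. Over all genes tested these SDs were 0.45 between hairpins and 0.28 between scramble libraries.

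The order of levels changed with the knockdown. In the scramble libraries ZFP30, ZNF146, ZNF571 and ZNF607 had the highest means, at 57.3, 53.2, 35.1 and 29.8 FPKM. In the knockdown libraries ZNF146 was first at 39.1 FPKM, followed by ZFP30 at 18 FPKM and ZNF585A at 15.6 FPKM, while ZNF607 was twelfth of 30. The number of members with a mean of at least 10 FPKM was 5 in the knockdown libraries and 16 in the scramble libraries. The level in scramble and the share left in knockdown had a Spearman correlation of -0.23 across the 30 members, which are neighbours measured in the same 4 libraries, with the scramble level in both measures.

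By position, the first 10 members in order of their starts had a median log2 change of -0.54, the next 10 of -1.06 and the last 10 of -1.38. Their summed levels in knockdown were 61.0%, 49.7% and 32.3% of those in scramble. The order was broken by members with small changes inside the cluster, among them ZNF585A, ZNF585B and ZNF527, and by ZNF781 and ZNF573 near its end. Larger changes among the first 10 members broke it too, in ZFP82 (-1.31), ZNF566 (-1.24) and ZFP14 (-0.96). A trend with position was not tested. By strand, the 12 members on the plus strand had a median of -0.95 and the 18 on the minus strand of -0.98. Their summed levels in knockdown were 50.9% and 42.8% of those in scramble. A difference between strands was not tested.

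Among the 6 printed sequences, ZNF345, ZNF260, ZNF585A and ZNF527 show motif matches, and ZNF607 and ZFP30 show none. Of the printed members with the largest changes only ZNF345 shows a match, while each of those with the smallest changes does. Over the 27 windows, NRF1 matches were in 3 of 14 from members called lower and in 6 of the other 13. These counts were 2 and 5 for ETS and 1 and 5 for the CCAAT box. They were 1 and 1 for YY1, 1 and 0 for ZBTB33 and 0 and 1 for the E-box. The calls come from the comparison by which the cluster was chosen, and all 15 were lost without scramble 1 or scramble 2. Nothing is therefore read from these counts or from the choice of printed sequences. Whether matches go with the size of the change was not tested. The NRF1 match of ZNF260 lies in the 50 bases after its start, which are not printed.

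Genes just outside the cluster were set beside it. CAPNS1, the calpain small subunit gene on the side of ZNF146, was at 261.18 and 243.03 FPKM in knockdown and 234.93 and 197.17 FPKM in scramble libraries. On the other side, SIPA1L3 was at 21.15 and 20.08 FPKM in knockdown and 25.55 and 24.39 FPKM in scramble libraries. Neither passed the test (limma, adjusted p = 0.312 for CAPNS1 and 0.173 for SIPA1L3), and the nearer genes COX7A1 and WDR87 were below 1 FPKM. The log2 change was 0.23 for CAPNS1 and -0.26 for SIPA1L3, the latter close to members ZNF260 (-0.29) and ZNF585A (-0.24). Of 24 flanking genes, 17 were tested, 1 fell and 0 rose, 6 of the 17 lay below 0 and the median over all 24 was 0.05.

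The flanking gene that fell was PPP1R14A, an inhibitor of myosin phosphatase, at 1.98 and 1.27 FPKM in knockdown and 6.09 and 5.82 FPKM in scramble libraries (-1.42 ± 0.19 on the log2 scale, SE; adjusted p = 0.0423 by limma). Its call was lost without either scramble library (adjusted p = 0.3789 in each case), with no filter on low values (0.1406) and with the scramble libraries averaged (0.4036). C19orf33 was higher in both knockdown libraries, at 144.25 and 143.28 FPKM, against 98.98 and 101.27 FPKM in the scramble libraries (limma, adjusted p = 0.0581). It passed without knockdown 1 or knockdown 2, but the spread in those fits comes from the scramble libraries alone. SDHAF1 had a log2 change of -0.40 and did not pass.

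**Figure D3:**
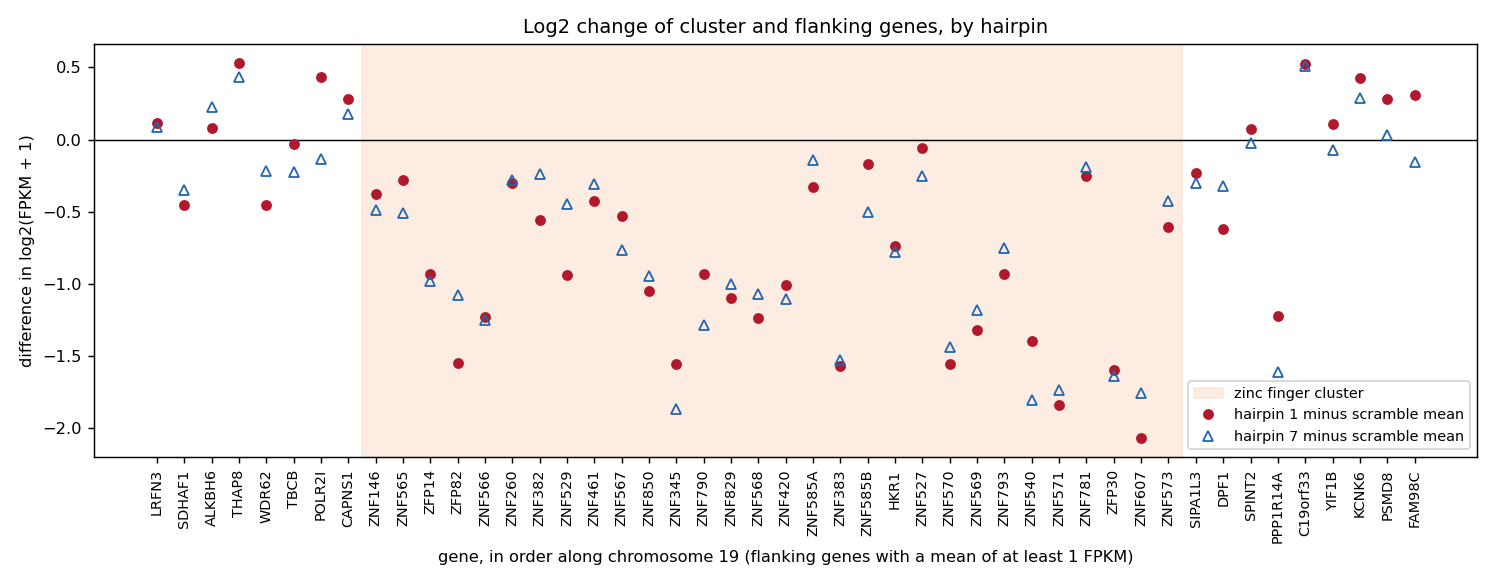
Difference in log2(FPKM + 1) from the scramble mean for hairpin 1 (red circles) and hairpin 7 (blue triangles), for the 30 cluster genes (shaded) and 17 flanking genes in order along chromosome 19. Every cluster gene lies below 0 with both hairpins, from ZNF607 at -2.07 with hairpin 1 to ZNF527 at -0.06, while flanking genes lie on both sides of 0.

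RNAs other than zinc finger messages are transcribed from the same stretch. LINC00665, a long noncoding RNA between ZNF146 and ZFP14, fell to 16.85 and 11.52 FPKM in knockdown libraries, against 40.56 and 43.56 FPKM in scramble libraries (-1.53 ± 0.19 on the log2 scale, SE; adjusted p = 0.0386 by limma). That call was lost without scramble 1 (adjusted p = 0.2618), without scramble 2 (0.3148), with those libraries averaged (0.3094), with no filter on low values (0.1365) and without a mean trend (0.05285). ZNF571-AS1, antisense to ZNF571, was at 1.88 and 0.89 FPKM in knockdown and 5.80 and 5.34 FPKM in scramble libraries. It did not pass (limma, adjusted p = 0.0558). With knockdown 1 or knockdown 2 left out it passed, but the spread in those fits comes from the scramble libraries alone. ZNF571-AS1 overlaps ZNF571 and ZNF540, from which its reads may not be separable.

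ZNF566-AS1 starts 88 bases from ZNF566 on the opposite strand and did not share that gene's difference. It was at 3.69 and 2.78 FPKM in knockdown and 2.80 and 2.60 FPKM in scramble libraries, a difference of 0.19 ± 0.18 on the log2 scale (SE; adjusted p = 0.54 by limma), while ZNF566 had a log2 change of -1.24. LINC01534, which starts 179 bases from ZNF567, had a log2 change of -0.41 and did not pass (limma, adjusted p = 0.329). Of 9 listed noncoding RNAs of the cluster with a row, 4 were tested, of which 1 fell and 0 rose.

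Zinc finger clusters elsewhere on chromosome 19 were the closest comparison. Of 105 zinc finger genes of 19q13.31 and 19q13.4, 81 were tested, 7 fell and 0 rose, where 1.11% of all genes tested fell. Both knockdown libraries lay below both scramble libraries in 65 of the 105, against 30.8% of genes tested, and the median log2 change was -0.24. Their summed level in knockdown was 75% of that in scramble. Those with the smallest p were ZNF283, ZNF470 and ZNF404, with log2 changes of -1.84 ± 0.10, -1.55 ± 0.10 and -1.45 ± 0.12 (SE, limma, adjusted p = 0.01, 0.0112 and 0.0173). Of 76 zinc finger genes of 19p, 64 were tested, 3 fell and 0 rose, and the median was -0.18 with a summed level of 73% of scramble. Both knockdown libraries lay below both scramble libraries in 39 of the 76. The 3 were ZNF714 at -1.28, ZNF699 at -0.88 and ZNF121 at -0.89 (limma, adjusted p between 0.0388 and 0.0484). All of these calls were lost without scramble 1 or scramble 2, where the fit called 0 genes.

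Zinc finger genes off chromosome 19 stood closer to the other genes. Of 274 protein-coding genes named ZNF or ZFP there, a set added after the data were seen, 139 lay below 0 and 122 above. Among the 220 tested, 3 fell and 0 rose (limma), where 1.11% of all genes tested fell. The summed level of the 274 in knockdown was 94.2% of that in scramble. The 30 members at 19q13.12 thus had the lowest summed share of these 4 sets, 45.9%. The difference between the sets was not tested, since the cluster was chosen with its change known.

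**Figure D4:**
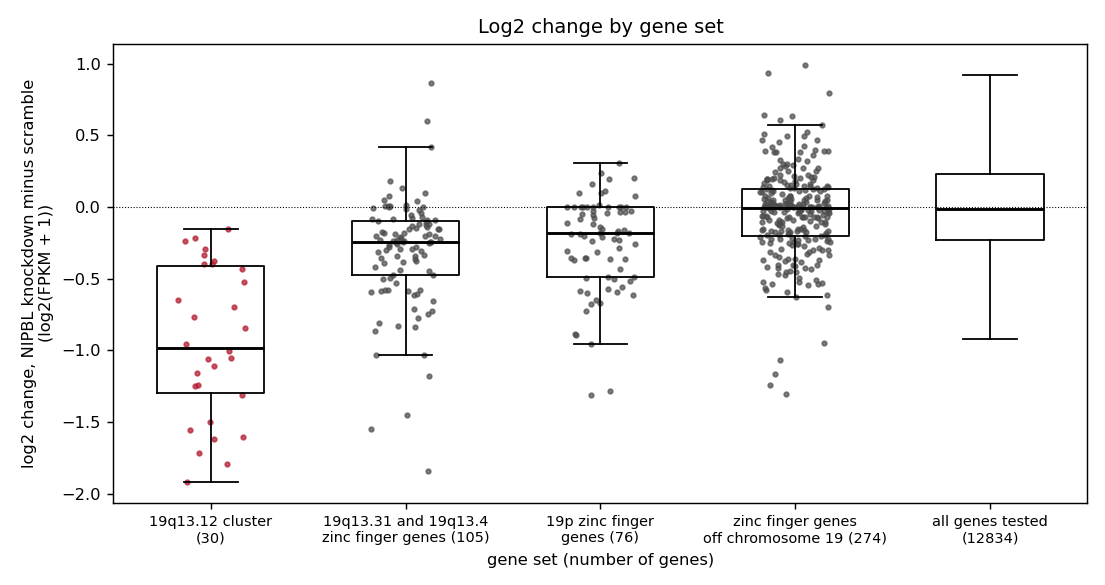
Change in log2(FPKM + 1), NIPBL knockdown minus scramble, for each gene of the 19q13.12 cluster (red) and of 3 other sets of zinc finger genes (grey points), with all genes tested as a box alone. Boxes run between the quartiles with the median as a line, whiskers reach the last value within 1.5 box heights, and the median is -0.98 in the cluster and -0.01 over all genes tested. Genes beyond the whiskers are not drawn for all genes tested.

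The repressor machinery through which KRAB zinc finger proteins act differed less. Of 24 corepressor and heterochromatin genes, 23 were tested and 0 passed by limma (at an unadjusted p under 0.05, 5 were lower and 1 was higher). The median log2 change over all 24 was -0.13, with a range from -0.49 for UHRF1 to 0.28 for MORC3. The gene not tested, ZNF274, is itself a zinc finger gene of chromosome 19, with means of 0.275 FPKM in knockdown and 0.635 FPKM in scramble libraries. TRIM28, the KRAB corepressor, was at 145.24 and 124.26 FPKM in knockdown and 177.20 and 178.64 FPKM in scramble libraries. SETDB1, the methyltransferase it recruits, was at 23.89 and 22.11 FPKM in knockdown and 29.36 and 28.79 FPKM in scramble libraries. DNMT1, the maintenance DNA methyltransferase, and EHMT2, another histone methyltransferase, had log2 changes of -0.45 ± 0.09 and -0.40 ± 0.12 (SE). The adjusted p of these 4 genes lay between 0.0695 for DNMT1 and 0.129 for SETDB1 (limma). Each passed without knockdown 1 or without knockdown 2, but the spread in those fits comes from the scramble libraries alone. It holds no difference between hairpins, so nothing is read from those fits.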

How the data were processed

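Gene expression was measured in 2 NIPBL knockdown and 2 scramble libraries of NUGC3 cells. The deposited values are FPKM per gene, made by the authors. Per the submitters' processing notes, the tools were STAR, an aligner, and RSEM, which estimates abundance. Versions, build, annotation, strand setting and filters were not given in the sources used here. RSEM divides reads that fit several genes, so values of similar genes are uncertain. Of 344810 rows, 53777 had an Ensembl gene identifier and were used, of which 50202 matched the reference tables.

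On log2(FPKM + 1), a model without covariates was fitted by limma 3.58.1 (R 4.3.3; eBayes with a mean trend) to the 12834 genes averaging 1 FPKM or more. P-values are two-sided and carry the Benjamini-Hochberg adjustment across those genes; 0.05 was the threshold. The fit was tested on simulated data. Log2 changes are knockdown minus scramble. The depth is unknown, so no counting intervals are given.

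Members and gene lists were chosen with earlier results of these data known. All members are reported. Other genes named are NIPBL, marker genes, the flanking genes at the cluster's edges, and up to 4 per list with the smallest p, or 3 for the other zinc finger clusters. Members were found by the symbol given with the deposited values. Other list entries were looked up by symbol, most of them in a gene name reference, and then followed by Ensembl identifier. Neighbours and transcript starts came from GENCODE 29, and sequences from RefSeq (GRCh38.p14). Alternatives changed the pseudocount, the filter, the scaling, the trend and the libraries. In the motif search, the NRF1, YY1 and ZBTB33 motifs were shortened by their last letter, and a CTCF motif was left out, after a first search had been seen.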

Additional observations from a re-analysis of the deposited data

How the results depend on the processing

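All 30 members kept a negative log2 change under each alternative tried, except ZNF527, which ranged from -0.3249 without scramble 1 to 0.01695 without scramble 2. With a pseudocount of 0.1 the median log2 change was -1.176 for the 30 members, -0.3385 for the other 19q zinc finger clusters and -0.2431 for the 19p clusters. With quantile normalization these were -1.026, -0.2622 and -0.2395, and the median over the 28 members tested, an alternative added after the data were seen, was -1.027. With each library left out in turn the medians lay between -0.9698 and -0.8963 for the members, between -0.2716 and -0.2389 for the other 19q clusters and between -0.2124 and -0.1573 for 19p. Counts of calls depended on the processing. Leaving out 1 library gave between 0 and 4532 genes called in all, against 328, and between 0 and 21 members, against 15. With no filter on low values limma called 1 gene and 0 members (4275 genes at an unadjusted p under 0.05). With the scramble libraries averaged and counted as 1, also added after the data were seen, it called 0 genes and 0 members (975 genes at an unadjusted p under 0.05), with 1 residual degree of freedom fewer. Without a mean trend 12 of the 15 members kept their call, with a filter at 0.5 FPKM 13, and with quantile normalization 14. Where a group is left with 1 library, that library is assumed to vary like the other group. The cause of these shifts was not tested. No paired analysis was possible because the labels give the groups no shared replicate numbers. Unknown depth limits the lowest members, ZNF781, ZNF382 and ZNF829.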
